A study of Mus musculus with 4 samples.

Results

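The proximal tubule transcripts Kap, Keg1, Miox, Gatm, Napsa and Akr1c21, abundant in mouse kidney, were followed through 23 kidney clusters in 4 conditions. They are 6 of the 19609 genes of the table, matched by symbol, and each of the 6 has a value in all 92 columns. They were chosen from earlier results of these data, for how they stood in the injured proximal tubule clusters, so their difference there is a description and was not tested. Kidney cortex nuclei from 4 male mice of mixed strain were sequenced on the 10x platform, 1 mouse per condition. The control mouse carried TRE-hKLF6, a human KLF6 transgene that stays silent without its activator, and was untreated. The hKLF6 OE mouse carried CAG-rtTA,TRE-hKLF6, in which a promoter active in most tissues drives the doxycycline-dependent activator, so overexpression was global and not limited to the tubule. Another mouse of each genotype received AAI (aristolochic acid I), a plant toxin that damages DNA in the proximal tubule, as a single injection the day before the kidneys were taken. By the study's methods all 4 mice ate a doxycycline diet, and the age of the mice is not given in the sources used here.

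The proximal tubule reclaims most of the filtered glucose, amino acids, phosphate and bicarbonate, and it is also the kidney's main site of drug conjugation and of several small-molecule syntheses. Its early part is named S1-S2 and its straight late part S3. Kap encodes the kidney androgen-regulated protein, a long-known male-biased product of mouse proximal tubule. Keg1 belongs to the glycine N-acyltransferase family, whose best-known member, Glyat, joins glycine to acyl-CoA. Miox is myo-inositol oxygenase, which opens the inositol ring in the first step of its breakdown. Gatm catalyzes the first step of creatine synthesis. Napsa is napsin A, a lysosomal aspartic protease, and Akr1c21 is a hydroxysteroid dehydrogenase of the aldo-keto reductase family. Droplet methods also capture RNA that has leaked from broken cells, so an abundant transcript can appear in droplets of cells that do not make it.

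On GRCm38, Kap (ENSMUSG00000032758) spans chr6:133849851-133853762 on the minus strand, 3912 bases with 4 exons in its longest transcript. Keg1 (ENSMUSG00000024694) spans chr19:12695786-12719902 on the plus strand, 24117 bases. Miox (ENSMUSG00000022613) lies at chr15:89334398-89337015 and Akr1c21 (ENSMUSG00000021207) at chr13:4574075-4586541, both on the plus strand. Gatm (ENSMUSG00000027199) lies at chr2:122594467-122611303 on the minus strand and Napsa (ENSMUSG00000002204) at chr7:44572380-44586862 on the plus strand. Antisense genes with their own rows overlap Keg1 (Gm15962, 13848 shared bases) and Napsa (Gm15396, 6895 shared bases). Whether counting used strand is not given in the sources used here, so reads of these pairs may not be told apart. The 250 bases before the RefSeq start are shown for 4 of the genes, since Kap and Keg1 lay furthest apart outside the proximal tubule and Miox and Akr1c21 lay between them. They are RefSeq sequences of GRCm38.p6, written 5′ to 3′ on the strand of the gene, at chr6:133853668-133853917 (Kap, minus), chr19:12695540-12695789 (Keg1, plus), chr15:89334223-89334472 (Miox, plus) and chr13:4573825-4574074 (Akr1c21, plus). Capitals mark matches to 4 motifs searched on both strands: the TATA box TATAAA, the HNF1 half-site GTTAAT, the HNF4 half-site AGGTCCA and the steroid receptor half-site TGTTCT.
Kap: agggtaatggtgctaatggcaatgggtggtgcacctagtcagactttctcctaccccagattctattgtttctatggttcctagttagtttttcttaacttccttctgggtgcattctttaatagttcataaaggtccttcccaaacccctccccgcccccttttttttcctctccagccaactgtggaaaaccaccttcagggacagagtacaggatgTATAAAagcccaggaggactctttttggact
Keg1: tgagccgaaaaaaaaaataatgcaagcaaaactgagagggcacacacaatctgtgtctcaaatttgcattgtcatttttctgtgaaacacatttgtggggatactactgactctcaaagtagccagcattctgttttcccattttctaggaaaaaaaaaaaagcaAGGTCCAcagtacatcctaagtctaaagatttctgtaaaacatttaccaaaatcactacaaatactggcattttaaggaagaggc
Miox: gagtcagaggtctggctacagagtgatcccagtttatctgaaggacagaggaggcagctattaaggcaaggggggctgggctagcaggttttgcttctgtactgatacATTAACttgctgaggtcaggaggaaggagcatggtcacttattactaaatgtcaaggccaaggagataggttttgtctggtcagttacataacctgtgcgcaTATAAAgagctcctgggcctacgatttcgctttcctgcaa
Akr1c21: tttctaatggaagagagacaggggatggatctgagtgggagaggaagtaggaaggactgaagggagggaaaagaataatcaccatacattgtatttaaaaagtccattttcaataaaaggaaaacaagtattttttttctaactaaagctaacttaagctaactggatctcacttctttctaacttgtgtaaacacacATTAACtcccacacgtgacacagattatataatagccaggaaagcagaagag

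TATAAA begins 31 bases before the RefSeq start in Kap and 40 bases before it in Miox, and it occurs in 12.4% of 32851 promoters of the same length. Both matches lie within the gene spans given above, which are those of GENCODE and begin upstream of the RefSeq starts. GTTAAT occurs on the opposite strand, so its reverse complement is capitalized, 142 bases before the start of Miox and 52 bases before that of Akr1c21, and in 6.43% of promoters. AGGTCCA occurs 85 bases before the start of Keg1 and in 2.97% of promoters. TGTTCT occurs in 16.1% of promoters, and these windows of the 4 genes hold no match to it. Gatm also lay between Kap and Keg1 outside the proximal tubule. Its window held no match to the 4 motifs and is not shown. A match is a run of letters and does not show that a factor binds there.

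Each value averages a gene's normalized expression across all nuclei that a mouse contributed to a cluster, on a linear scale on which all genes of a column sum to 10000. Of the 23 clusters, 5 are normal proximal tubule (3 PT-S3 and 2 PT-S1-S2), 2 are the injured proximal tubule clusters InjuredPT-A and InjuredPT-B, and 16 lie outside the proximal tubule. Cluster numbers were matched to names by the order of the study's marker sheets, and most names held against their markers. EC-1 held the S1-S2 transporter Slc5a12 at 17.3 and the endothelial Flt1 at 3.80, against 22.7 for Flt1 in EC-2 (means of the 4 mice), so the endothelial name of EC-1 is not borne out by these markers. LH-DL held the podocyte gene Wt1 at 4.40 and its own marker Slc14a2 at 0.71. DCT/CNT held the distal Slc12a3 at 49.6 (mean of the 4 mice), but proximal tubule genes as well. In the control mouse its Slc34a1 was 40.4, Lrp2 13.6 and Slc5a12 12.2, against 8.43, 2.81 and 2.14 in DCT. EC-1 and DCT/CNT were counted outside the proximal tubule by their names. The Klf6 row counts the mouse gene and no row holds the human transgene, so the genotype labels could not be checked here. Mouse Klf6 was 0.215 in normal proximal tubule of the control mouse, 0.406 in control AAI, 0.137 in OE and 0.327 in OE AAI. How many nuclei and reads lie behind a single column (1 cluster of 1 mouse) was not known here, so its counting error cannot be stated. As every condition has 1 mouse, there is no spread between mice of a condition, no test was made, and every difference describes these 4 mice. The share of genes listed at 0 in InjuredPT-A was 62.6% for control, 40.8% for OE, 22.5% for control AAI and 22.2% for OE AAI. In InjuredPT-B it was 51.3%, 55.7%, 27.0% and 29.7% in the same order. In both clusters the columns from the untreated mice are therefore the less certain ones.

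In normal proximal tubule, the members differed in which segment held them. The mean of the 5 normal clusters was 56.4 for Kap in the control mouse, 47.8 in control AAI, 84.4 in OE and 35.5 in OE AAI. For Keg1 the same means were 84.3, 70.6, 54.0 and 50.7. Keg1 was highest in PT-S3-1 of all 4 mice, and Kap in PT-S1-S2-1. Gatm was the most segmental: its mean in the PT-S1-S2 clusters was 9.70, 9.47, 7.51 and 7.97 in control, control AAI, OE and OE AAI, and in the PT-S3 clusters 1.28, 1.20, 1.26 and 1.35. On the log2(value + 1) scale used for all differences, Gatm was thus lower in S3 by a difference of -2.23, -2.25, -1.91 and -1.93. Napsa ran the other way, most of all in PT-S3-2, at 10.7, 15.6, 16.2 and 11.6. PT-S3-3 held 3.80, 6.65, 5.89 and 5.81, and PT-S3-1 3.18, 2.53, 4.70 and 1.53. The higher of the PT-S1-S2 clusters held 3.40, 3.66, 5.57 and 2.19, so PT-S3-3 stood clearly above both of them in the AAI mice and close to the higher one without AAI. Counting a gene when it differed by at least 0.2 in the same direction in all 4 mice, 1 member was higher in S3 (Napsa) and 3 were lower (Kap, Miox and Gatm). Of 3637 genes tested, 10.4% were higher and 12.4% lower by this count. For Kap the size was small, from -0.37 to -0.28, and it rested on PT-S1-S2-1, where Kap was 75.6 in the control mouse against 52.3 in PT-S1-S2-2. Akr1c21 differed little between segments, from -0.16 to 0.20, and its 5 normal clusters in the control mouse lay between 5.30 and 6.51.

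**Figure D1:**
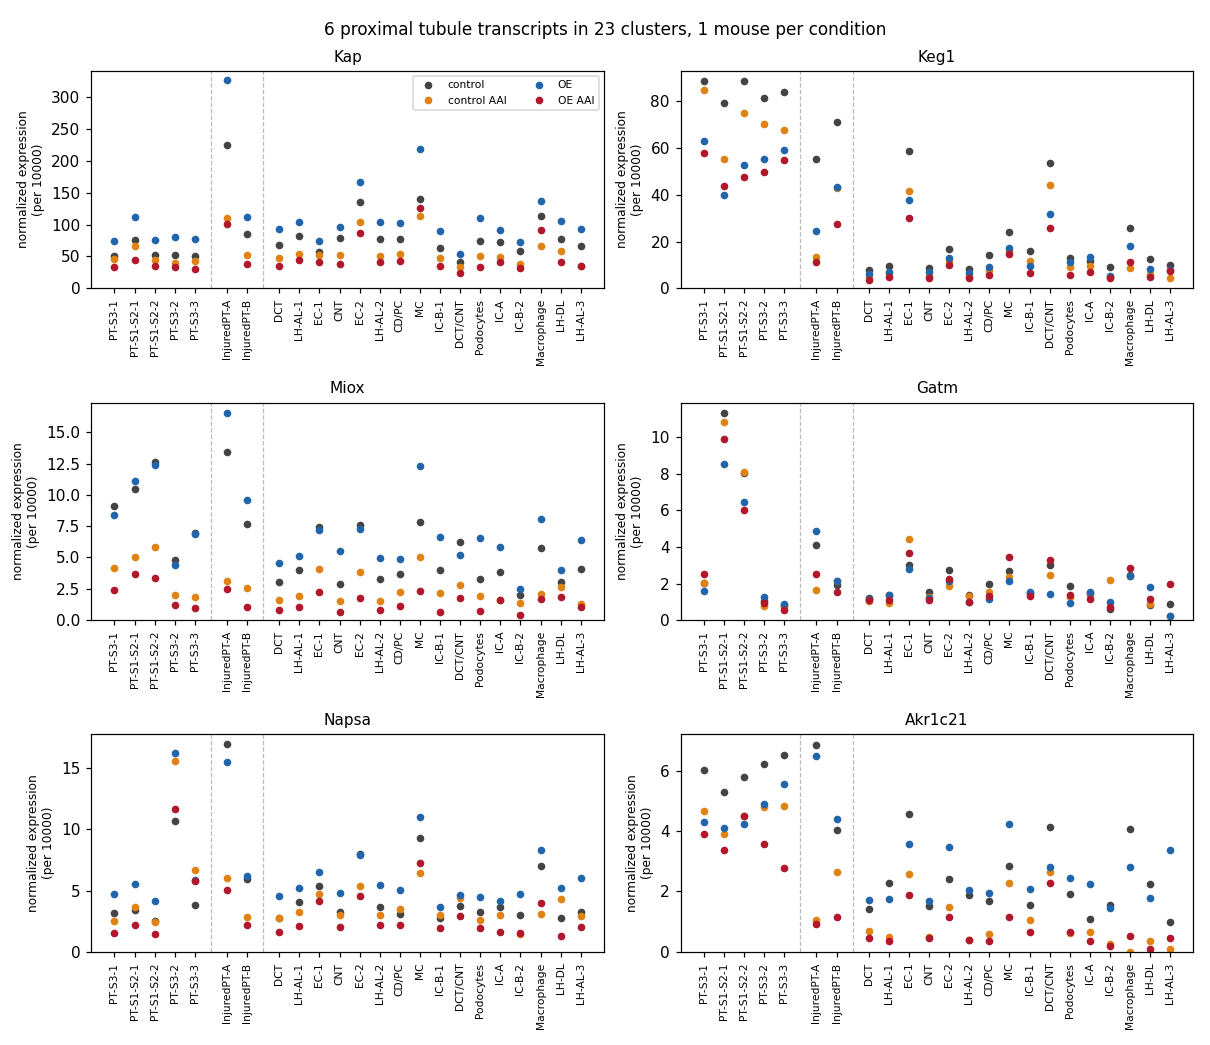
Normalized expression per 10000 (vertical axes, linear, from 0) of each of the 6 genes in each of 23 clusters, with 1 point per mouse. Dashed lines separate the 5 normal proximal tubule clusters, the 2 injured clusters and the 16 clusters outside the proximal tubule. Keg1 lies between 39.7 and 88.8 in normal proximal tubule and at 26.0 or less in the 14 outside clusters other than EC-1 and DCT/CNT, while Kap is as high outside as inside.

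Outside the proximal tubule, Kap was as abundant as within it and Keg1 was not. The median of Kap over the 16 outside clusters was 75.6 in the control mouse, 51.2 in control AAI, 99.5 in OE and 40.8 in OE AAI, which is 134%, 107%, 118% and 115% of its normal proximal tubule mean. Outside values of Kap ran from 40.7 to 140 in the control mouse, lowest in DCT/CNT and highest in the mesangial cluster MC in all 4 mice. They exceeded the normal proximal tubule mean in 15 of 16 clusters of the control mouse, 12 of control AAI, 13 of OE and 10 of OE AAI. Kap was 73.7 in podocytes, 67.9 in DCT and 113 in macrophages of the control mouse. Among genes with a normal proximal tubule mean of at least 5 in that mouse, an outside median at or above that mean was seen for 13.8% of 247 genes in the control mouse, 13.7% of 255 in control AAI, 16.7% of 203 in OE and 12.1% of 248 in OE AAI. By this percentage Kap ranked 15, 28, 28 and 17 from the top in the 4 mice.

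The outside median of Keg1 was 12.8, 8.23, 9.22 and 6.11 in control, control AAI, OE and OE AAI, or 15.2%, 11.7%, 17.1% and 12.1% of normal proximal tubule. No outside cluster reached the normal mean in any mouse. Its highest outside values were in EC-1 and DCT/CNT, at 58.9 and 53.4 in the control mouse, and EC-1 and DCT/CNT stood apart from the other 14 clusters in all 4 mice. Both clusters also held other proximal tubule genes, as given above, and their make-up was not tested. Keg1 ranked 236 of 247, 231 of 255, 180 of 203 and 226 of 248 genes, near the bottom. It is the only member among 69 genes chosen in the control mouse for a mean of at least 5 and at least 4 times the outside median. In control AAI, OE and OE AAI, which did not choose them, the median of these 69 genes was 14.8%, 18.6% and 14.2%. The other members lay between Keg1 and Kap. The outside median of Napsa was 73.3%, 49.6%, 70.2% and 46.0% of normal proximal tubule, that of Miox 44.2%, 53.1%, 66.0% and 47.1%, and that of Gatm 33.0%, 32.3%, 37.4% and 33.0%. Akr1c21 stood at 31.9% and 46.8% in the control and OE mice and at 13.3% and 12.9% in their AAI counterparts. Akr1c21 was listed at 0 in macrophages of control AAI, the only 0 among the members' 552 values. In that column 63.4% of all genes were at 0.

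**Figure D2:**
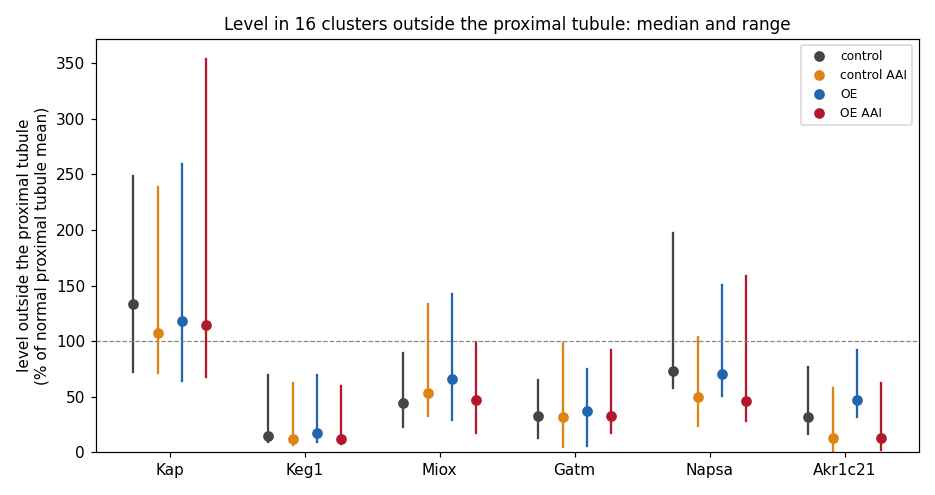
Median (point) and range (line) of each gene over the 16 clusters outside the proximal tubule, as a percent of that mouse's mean over its 5 normal proximal tubule clusters (vertical axis, linear), for 4 mice. The Kap points lie between 107% and 134%, above the dashed line at 100%, and the Keg1 points between 11.7% and 17.1%.

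In the injured cluster InjuredPT-A, Kap was more than 2-fold higher than in normal proximal tubule while Keg1, Gatm and Akr1c21 were lower. Kap was 110 in InjuredPT-A of the control AAI mouse against 47.8 in its normal clusters, and 101 against 35.5 in OE AAI, a ratio of 2.31 and 2.85 (log2 difference 1.19 and 1.49). Keg1 was 13.3 against 70.6 and 11.104 against 50.7 (log2 difference -2.33 and -2.09). Akr1c21 was 1.05 against 4.53 and 0.92 against 3.62 (-1.43 and -1.27). Gatm was 1.67 against 4.51 and 2.53 against 4.00 (-1.05 and -0.50). Miox, at 3.11 against 3.76 and 2.48 against 2.33, and Napsa, at 6.02 against 6.16 and 5.08 against 4.53, did not differ in the same direction by 0.2 in both mice. Counted that way, 1 member was higher and 3 lower in InjuredPT-A, where 43.3% of 5008 genes tested were higher and 27.0% lower. The median difference over those 5008 genes was 0.19 in control AAI and 0.15 in OE AAI. Since the members were chosen for this contrast, nothing is read from the counts. Against PT-S3 alone Gatm turned to 0.28 and 0.59, as PT-S3 holds little Gatm.

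In InjuredPT-B, the 5 members other than Kap were lower and Kap was near its normal level. Kap was 52.3 against 47.8 in control AAI and 37.9 against 35.5 in OE AAI (log2 difference 0.13 and 0.09). Keg1 was 42.9 against 70.6 and 27.7 against 50.7 (-0.70 and -0.85), a smaller difference than in InjuredPT-A. Napsa was 2.83 against 6.16 and 2.18 against 4.53 (-0.90 and -0.80). Miox differed by -0.42 and -0.72, Gatm by -0.81 and -0.97, and Akr1c21 by -0.61 and -1.09. Among the members 0 were higher and 5 lower in this cluster, where 23.4% of 4148 genes tested were higher and 13.1% lower. The reference moved the size of Napsa and Gatm, which are segmental: Napsa in OE AAI was 0.16 higher than in the PT-S1-S2 clusters, and Gatm was 0.52 and 0.12 higher than in PT-S3.

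**Figure D3:**
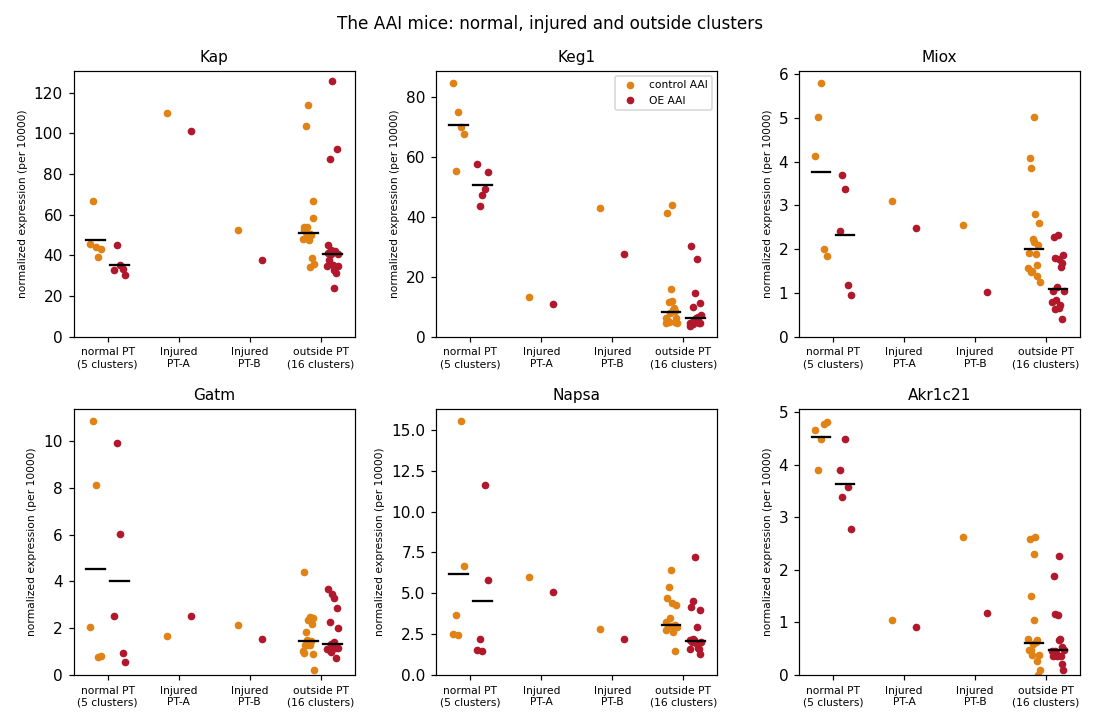
Normalized expression per 10000 (vertical axes, linear, from 0) in the control AAI and OE AAI mice, for the 5 normal proximal tubule clusters (bar, mean), InjuredPT-A, InjuredPT-B and the 16 clusters outside the proximal tubule (bar, median). Kap in InjuredPT-A (110 and 101) lies above all normal clusters and within the outside range, and Keg1 in InjuredPT-A (13.3 and 11.104) lies far below all normal clusters and also within the outside range.

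The members in InjuredPT-A were also set against the range of the 16 outside clusters. In control AAI, 6 of 6 members in InjuredPT-A lay within the range of the 16 outside clusters, and in OE AAI 5 of 6, all but Miox, which was 2.48 against an outside maximum of 2.32. The same held for 83.1% and 81.0% of the genes with a normal proximal tubule mean of at least 5. Below that mean were Napsa and Gatm in control, Miox, Gatm and Akr1c21 in control AAI, and Gatm and Akr1c21 in OE. In OE AAI all members but Kap and Keg1 were below it. The shares in this paragraph are therefore not matched to the counts of members, and nothing is read from setting them side by side. Kap was near the top of that range: at 110 and 101 it was above 15 of the 16 clusters in each AAI mouse, below MC alone (114 and 126), and over 2 times the outside median (51.2 and 40.8). For InjuredPT-B the members within the outside range numbered 5 in control, 5 in control AAI, 4 in OE and 6 in OE AAI, where 52.2%, 74.9%, 56.7% and 76.6% of those genes were. Keg1 in InjuredPT-B of the AAI mice, at 42.9 and 27.7, was within range through DCT/CNT in control AAI (44.1) and EC-1 in OE AAI (30.2), while the 14 clusters other than these reached 16.1 and 14.6. Without AAI, InjuredPT-A held Kap at 225 in the control mouse and 327 in OE, the highest of all 23 clusters, and Miox at 13.4 and 16.6, Napsa at 16.9 and 15.4, Gatm at 4.12 and 4.89, and Akr1c21 at 6.85 and 6.48. There 1 of 6 members, Keg1, lay within the outside range, at 55.5 and 24.6, through EC-1 in control (58.9) and through EC-1 and DCT/CNT in OE (37.8 and 31.9), where 73.3% and 74.9% of the genes with a mean of at least 5 did. Those columns, and the columns of InjuredPT-B from the untreated mice, had more genes at 0 than the AAI columns of the same clusters. Outside columns had many genes at 0 too, up to 62.0% in control, 63.4% in control AAI, 63.4% in OE and 61.5% in OE AAI. The ends of the outside range can therefore rest on columns with many genes at 0.

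Other values moved with Kap in InjuredPT-A. Mitochondrially encoded transcripts made up 6.23% of the column in control, 1.84% in control AAI, 7.70% in OE and 2.35% in OE AAI, against medians of 1.44%, 0.966%, 1.98% and 0.945% in normal proximal tubule. Of 14 genes that mark other kidney cells, 10, 14, 14 and 14 were higher in InjuredPT-A than in that mouse's normal proximal tubule. That count took any difference, without the threshold or the minimum level used elsewhere, so genes near 0 enter it. With both applied in the AAI mice, 5 of the 14 could be tested. Of these 5, 5 were higher and 0 lower, where 43.3% of 5008 genes were higher and 27.0% lower. The summed level of the 14 genes was 33.1, 17.2, 54.2 and 25.1 against 8.11, 8.97, 9.82 and 9.78. Umod, the secreted product of the thick ascending limb, was 7.60 and 9.39 in InjuredPT-A of the AAI mice against 4.30 and 3.65 in their normal proximal tubule and 38.6 and 38.5 in LH-AL-2. In InjuredPT-B the summed level of the 14 genes was 10.8 and 11.9 in the AAI mice. The part of free RNA, of damaged nuclei or of mixed droplets in the level of any member was not tested.

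The ratio of Kap to Keg1 within a column restates the levels given above and is not a separate result. It was 0.669, 0.676, 1.56 and 0.700 in normal proximal tubule of control, control AAI, OE and OE AAI. Outside, its median was 6.18, 7.87, 12.2 and 7.98, and InjuredPT-A held 4.05, 8.31, 13.3 and 9.11. InjuredPT-B, at 1.21, 1.22, 2.58 and 1.37, lay closer to normal proximal tubule. For both injured clusters the values of control and OE are the less certain ones. DCT/CNT had the lowest outside ratio in each mouse, 0.761, 0.776, 1.69 and 0.925, and EC-1 followed with 0.981, 1.27, 1.97 and 1.36. Without EC-1 and DCT/CNT the ratio stayed between 3.98 and 9.35 for control and between 4.00 and 10.4 for control AAI. Kap kept a steadier ratio to the sum of the 13 mitochondrially encoded transcripts. That sum was 2.85, 2.32, 2.67 and 2.83 times Kap in normal proximal tubule and 2.77, 1.66, 2.35 and 2.31 times Kap in InjuredPT-A. Over the 16 outside clusters it ran from 2.47 to 3.71 in control, from 1.96 to 3.92 in control AAI, from 2.41 to 3.54 in OE and from 2.23 to 4.25 in OE AAI. The SD of its log2 value over those clusters was 0.153, 0.259, 0.158 and 0.251. For the same sum per Keg1 the SD was 1.02, 0.893, 0.955 and 0.880. EC-1 and DCT/CNT widened the SD per Keg1, at 3.41 and 2.40 times Keg1 in control and 6.38 and 5.34 in OE. The other 14 clusters ran from 12.7 to 26.7 times Keg1 in control and from 23.8 to 50.5 in OE. Over these 14 the sum per Kap kept its range in control and OE. No SD was worked out without EC-1 and DCT/CNT, so the SDs overstate how much steadier Kap was elsewhere.

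Over the 92 columns, which share 4 mice and 1 scale, the genes most like Kap were mostly mitochondrial. Among 1433 genes that reach 5 in some column, Pearson's r of log2(value + 1) with Kap was 0.938 for mt-Co3, 0.935 for the chaperone Hspa8, 0.933 for mt-Co2, 0.928 for mt-Atp6 and 0.926 for the peroxiredoxin Prdx5. Their outside medians in the control mouse were 118% to 144% of normal proximal tubule. The genes most like Keg1 were genes of the tubule itself: the endocytic receptor Lrp2 at r 0.972, the organic cation exporter Slc47a1 at 0.963, Hnf4aos, antisense to a master transcription factor gene of the tubule, at 0.961, the amino acid transporter Slc6a20b at 0.952, and the tyrosine-degrading enzyme Hgd at 0.943. Their outside medians in the control mouse were 10.4% to 25.1%. Kap and Keg1 had an r of 0.0035 with each other. Keg1 and Akr1c21 had 0.866, Miox and Akr1c21 0.761, and Kap and Miox 0.697. These values describe columns that are not independent and were given no test.

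**Figure D4:**
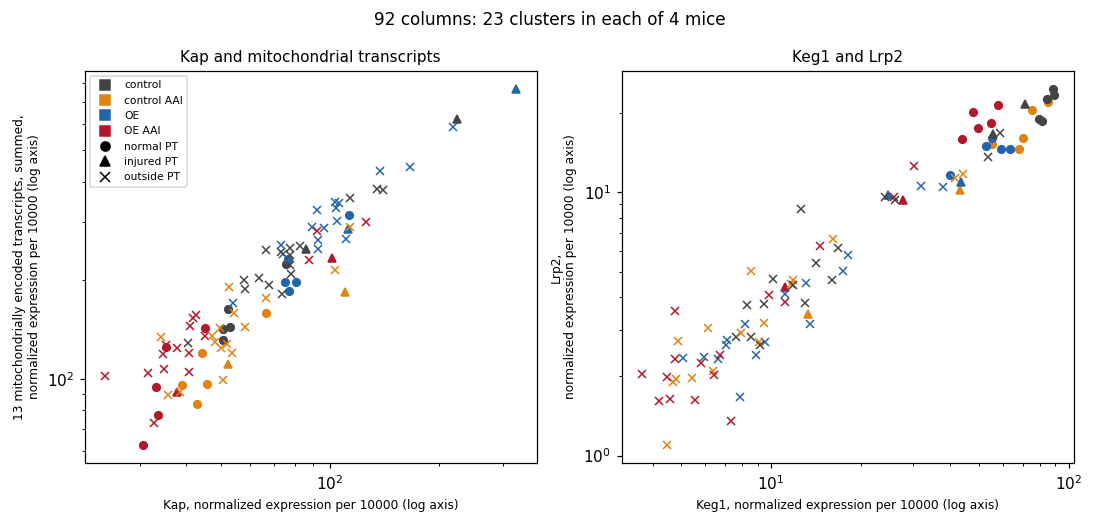
Each point is 1 of 92 columns (23 clusters in 4 mice, color by mouse and shape by class of cluster), on log axes of normalized expression per 10000. On the left, the sum of 13 mitochondrially encoded transcripts follows Kap in all 3 classes of cluster. On the right, Lrp2 follows Keg1 (r 0.972), with normal proximal tubule at the upper end.

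After AAI, the members were lower in normal proximal tubule of the control genotype with the exception of Gatm and Napsa. Miox had the largest difference: it was 8.79 in the control mouse and 3.76 in control AAI, and 8.64 in OE and 2.33 in OE AAI (log2 difference -1.04 and -1.54). Kap was 56.4 and 47.8 in the control genotype (-0.24), and 84.4 and 35.5 in the OE genotype (-1.23). Akr1c21 was 5.96 and 4.53 (-0.33), and 4.62 and 3.62 (-0.28). Keg1 was 84.3 and 70.6 (-0.25), and 54.0 and 50.7 (-0.09). Gatm differed by -0.04 and 0.07. Napsa was 4.72 and 6.16 in the control genotype (0.32) but 7.30 and 4.53 in the OE genotype (-0.59). In the control genotype its clusters were divided, with 0.50 in PT-S3-2, 0.67 in PT-S3-3, 0.08 in PT-S1-S2-1, -0.04 in PT-S1-S2-2 and -0.24 in PT-S3-1, and the mean without PT-S3-2 differed by 0.19. In the control genotype 1 member was higher and 4 lower, where 11.7% of 4052 genes were higher and 11.25% lower. Kap (-0.196) fell just short of 0.2 without PT-S3-2, and Keg1 (-0.1995) without PT-S1-S2-1. In the OE genotype 0 members were higher and 4 lower, where 19.5% of 4133 genes were higher and 15.4% lower.

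The differences with AAI were not limited to the proximal tubule. Of the 16 outside clusters, Kap was lower by at least 0.2 with AAI in 15 in the control genotype and in 16 in the OE genotype. Keg1 was lower in 16 and 14, Miox in 15 and 16, Akr1c21 in 16 and 16, and Napsa in 8 and 16. Gatm was lower in 6 and 3 and higher in 2 and 5. A difference to lower values in every outside cluster was seen for 0.635% of 2047 genes in the control genotype and 2.24% of 2056 in the OE genotype, counting genes whose larger value was at least 0.5 in all 23 clusters. For counts below 16, no share over all genes was worked out. In terms of the outside median, Miox went from 3.89 to 2.00 (-0.71) and from 5.70 to 1.09 (-1.68), Akr1c21 from 1.90 to 0.60 (-0.86) and from 2.16 to 0.47 (-1.11), and Kap from 75.6 to 51.2 (-0.55) and from 99.5 to 40.8 (-1.27). On this median 4 members were lower and 0 higher in the control genotype, where 9.34% of 4024 genes were lower and 11.11% higher. In the OE genotype 5 members were lower and 0 higher, where 15.9% of 4021 genes were lower and 19.1% higher. For Keg1 the difference was larger outside than inside, -0.58 outside and -0.25 in normal proximal tubule in the control genotype, and -0.52 and -0.09 in the OE genotype. The mitochondrially encoded share was also lower with AAI, with an outside median of 2.31% in control, 1.35% in control AAI, 2.96% in OE and 1.26% in OE AAI, and its part in these differences was not tested.

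**Figure D5:**
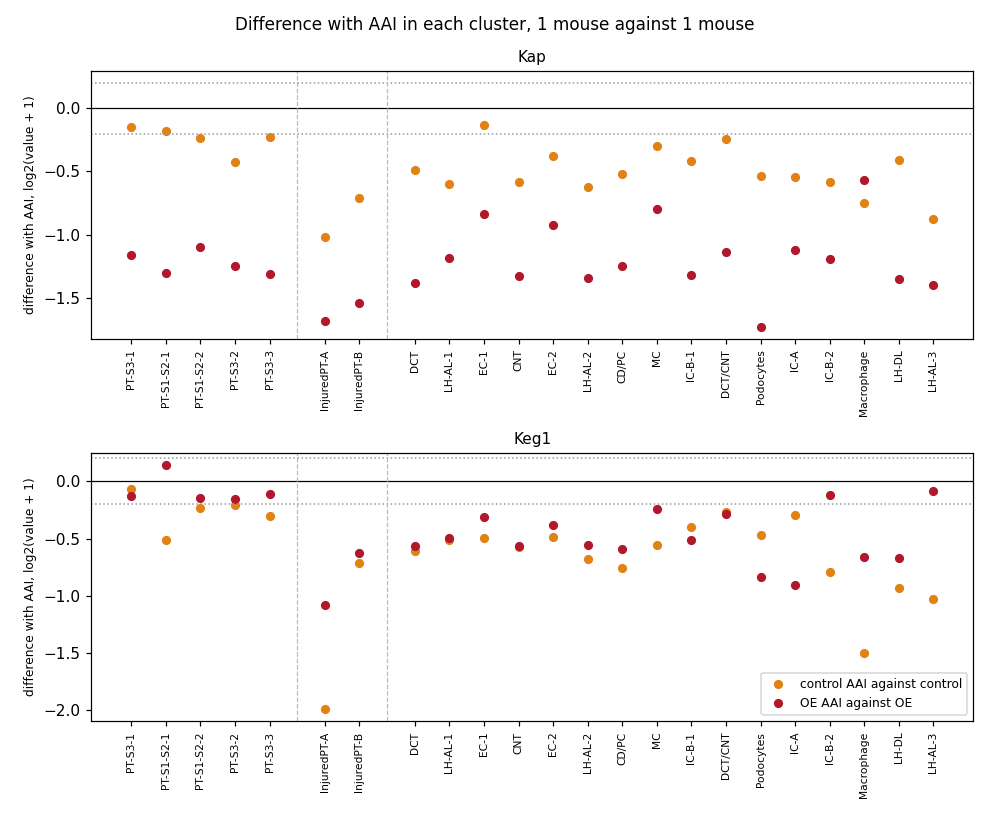
Difference of log2(value + 1) between the AAI mouse and the untreated mouse of the same genotype (vertical axis) in each of 23 clusters, for Kap and Keg1, with dotted lines at 0.2 on either side of 0. Kap is below 0 in every cluster of both genotypes, and Keg1 is above 0 only in PT-S1-S2-1 of the OE genotype (0.14).

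Between genotypes without AAI, Kap was higher in the OE mouse and Keg1 lower, inside and outside the proximal tubule alike. In normal proximal tubule Kap was 84.4 in OE against 56.4 in control (log2 difference 0.57), Napsa 7.30 against 4.72 (0.54) and Keg1 54.0 against 84.3 (-0.63). Akr1c21 differed by -0.31, Gatm by -0.25 and Miox by -0.02. Thus 2 members were higher and 3 lower, where 7.84% of 4041 genes were higher and 9.33% lower. Kap was higher in 23 of 23 clusters, and 0.652% of 1994 genes were higher in every one of the 16 outside clusters. Keg1 was lower in 22 of 23, a count for which no share over all genes was worked out. On the outside median 3 members were higher (Kap, Miox and Napsa) and 1 lower (Keg1), where 8.14% of 4017 genes were higher and 10.2% lower. The mitochondrially encoded share was higher in the OE mouse too, 1.98% against 1.44% in normal proximal tubule and 2.96% against 2.31% outside, and its part was not tested.

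With AAI the order of the genotypes turned for Kap and Napsa. Kap was 35.5 in OE AAI against 47.8 in control AAI (-0.42), Napsa 4.53 against 6.16 (-0.37), Miox 2.33 against 3.76 (-0.52) and Keg1 50.7 against 70.6 (-0.47). Akr1c21 differed by -0.26 and Gatm by -0.14. So 0 members were higher and 5 lower, where 6.32% of 3942 genes were higher and 7.74% lower. Outside, 0 members were higher and 4 lower, where 4.1% of 3903 genes were higher and 7.81% lower. Keg1 was therefore lower in the OE mouse of each pair, in normal proximal tubule and in the outside median. Each of these comparisons sets 1 mouse against 1 mouse, and the OE comparisons share mice with the AAI comparisons.

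The genes that work beside each member were read in the same contrasts. Their counts stand beside 43.3% of all genes tested higher and 27.0% lower in InjuredPT-A (median difference 0.19 and 0.15), and 23.4% higher and 13.1% lower in InjuredPT-B. Of the glycine conjugation genes (Glyat, Acsm1, Acsm2, Acsm3 and Acsm5), 5 of 5 tested were lower in InjuredPT-A, with a median difference of -0.73 and -0.59, and 4 of 5 in InjuredPT-B (-0.55 and -0.66). Acsm1, a medium-chain acyl-CoA synthetase, had the largest fall in InjuredPT-A, from 5.83 to 1.14 in control AAI and from 4.55 to 0.96 in OE AAI. On the log2(value + 1) scale the difference of Keg1, at -2.33 and -2.09, was larger than that of each of these 5. The added 1 shrinks the difference of a low gene such as Acsm1 more. Keg1 was also chosen for this contrast, so the falls are not ranked. With AAI in normal proximal tubule, 2 of 5 were lower in the control genotype and 5 of 5 in the OE genotype, where 11.25% and 15.4% of all genes were.

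Of 7 androgen-responsive kidney genes tested beside Kap, 2 were higher and 3 lower in InjuredPT-A, with a median of -0.38 in control AAI and 0.23 in OE AAI, while in InjuredPT-B 2 were lower and 0 higher. The organic anion transporter gene Slc22a6 was higher, at 3.59 against 1.77 and 6.09 against 1.35, and the S3 enzyme gene Cyp7b1 lower, at 0.76 against 12.1 and 2.18 against 14.1. Over all genes the shares higher and lower in InjuredPT-A were 43.3% and 27.0%. In the OE mouse without AAI, where Kap was higher, 1 of the 7 was higher and 1 lower, beside 7.84% and 9.33% of all genes.

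The members' other pathways were mixed in InjuredPT-A, where 43.3% of all genes were higher and 27.0% lower. Of 5 inositol genes tested beside Miox, 0 were higher and 3 lower (median -0.23 and -0.33), and of 7 lysosomal proteases tested beside Napsa, 5 were higher and 0 lower (0.54 and 0.36), led by the cathepsin gene Ctsl at 1.12 and 1.11. Of 5 steroid-metabolizing genes tested beside Akr1c21, 0 were higher and 3 lower (-1.04 and -1.05). The creatine transporter gene Slc6a8, the only creatine gene beside Gatm that could be tested, was higher by 0.45 and 0.63. Of 49 proximal tubule transport and metabolism genes, 6 were higher and 33 lower (-0.73 and -0.48), and of 8 tubule transcription factor genes 0 were higher and 7 lower (-1.43 and -1.39), with Esrrg lowest at -3.31 and -2.74. In InjuredPT-B the counts of higher and lower genes were 0 and 1 of 5 for inositol, 2 and 0 of 6 for proteases, 0 and 3 of 5 for steroid, 2 and 28 of 49 for transport and metabolism and 0 and 5 of 8 for the transcription factors, while Slc6a8 differed by -0.07 and 0.01.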

How the data were processed

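Single-nucleus RNA sequencing of kidney cortex from 4 mice was used, 1 mouse per condition. Per the labels, the authors used Cell Ranger with mm10 and then Seurat. By the study's methods, intronic reads were counted. Nuclei with very few or very many genes, or with a high mitochondrial share, were excluded by those methods. The mitochondrial shares given here are therefore those of the nuclei kept. No step that removes doublets or free RNA is described here. Signal values, deposited by the authors, are mean normalized expression per cluster and mouse on a linear scale. The unit was inferred, as each of 92 columns sums to 10000. Depth and numbers of nuclei per column were not known here. The table has 19632 gene rows, and 23 whose symbols had turned into dates were dropped.

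Differences were taken on log2(value + 1) where the larger value was at least 0.5, and a gene was counted from a difference of 0.2 in every pair of values compared. Injured clusters were set against that AAI mouse's own mean over its 5 normal proximal tubule clusters. Outside levels are medians over 16 clusters. No test was made. The genes named are the 6 members, the 5 genes most like Kap and the 5 most like Keg1, and extremes of 10 lists: the 8 pathway lists described, 14 genes of other kidney cells and the cell type markers. Members and lists were chosen with earlier results of these data known. 1 gene is not reported here and was left out of the lists. Wt1, Umod, Klf6, Slc22a6, Slc34a1, Slc12a3, EC-1, LH-DL and DCT/CNT were singled out after their values were seen. Members were matched to GENCODE vM21 by symbol and 5 of 6 to RefSeq promoters. The counting was tested on simulated data. Python 3.11.15, numpy 2.4.6, pandas 2.3.3 and matplotlib 3.10.9 were used.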

Additional observations from a re-analysis of the deposited data

Results flagged for a closer look

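For Kap in normal proximal tubule, the difference between OE and control was 0.57 without AAI and -0.42 with AAI on the log2(value + 1) scale, so it had opposite signs at the 2 treatments. The 5 normal clusters moved the same way in each case, from 0.54 to 0.60 without AAI and from -0.55 to -0.22 with AAI. The gap between these differences was -0.99 inside and -0.72 in the outside median.

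For Napsa the difference with AAI was 0.32 in the control genotype and -0.59 in the OE genotype, and the difference between OE and control was 0.54 without AAI and -0.37 with AAI. Its gap was -0.91 inside and -0.85 outside. The normal clusters did not share the AAI difference of Napsa in the control genotype, which was 0.67 in PT-S3-3, 0.50 in PT-S3-2, 0.08 in PT-S1-S2-1, -0.04 in PT-S1-S2-2 and -0.24 in PT-S3-1. In the OE genotype it ran from -1.17 to -0.02. None of these gaps was tested, since each condition has 1 mouse.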

How the results depend on the processing

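Alternatives were run for the members' differences in the injured clusters, with AAI and between genotypes, for their outside percentages and for their segment differences. The numbers below list the members or genes past the threshold in the order InjuredPT-A, InjuredPT-B, AAI in control, AAI in OE, OE without AAI and OE with AAI, which were 3517, 1514, 931, 1443, 694 and 554 genes as reported. A pseudocount of 0.1 gave 2326, 1853, 2422, 1443 and 1357 genes from InjuredPT-B on. A minimum of 2 gave 1045, 585, 463, 618, 328 and 292 genes. A threshold of 0.5 gave 1726, 315, 174, 302, 64 and 57 genes, with 0 members higher and 1 lower for AAI in control, and 1 lower in each genotype comparison. A threshold of 1 gave 456, 40, 25, 53, 7 and 3 genes. It left 0 members lower in InjuredPT-B, 0 higher and 1 lower for AAI in control, 2 lower for AAI in OE, 0 higher and 0 lower for OE without AAI, and 0 lower for OE with AAI.

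Values less the outside median gave 1963 genes in InjuredPT-A, 888 in InjuredPT-B and 747 for AAI in OE. In InjuredPT-A, Kap was then 3.88 and 5.04 and Keg1 -3.39 and -2.93, and in InjuredPT-B Kap was -0.96 and -0.90 (control AAI, then OE AAI). Since the outside median of Kap exceeds its normal mean, subtraction leaves little Kap. Kap reversed to 2.03 for AAI in control, and Napsa to 0.091 and Akr1c21 to 0.27 for AAI in OE. Members higher and lower became 2 and 1 for AAI in control and 1 and 2 for AAI in OE.

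With PT-S3 as the reference, the higher members were 2 in InjuredPT-A and 1 in InjuredPT-B, and the lower ones 3 in InjuredPT-B. Miox reversed to 0.17 in InjuredPT-A of control AAI, and Gatm to 0.28 and 0.59 in InjuredPT-A and to 0.52 and 0.12 in InjuredPT-B. With PT-S1-S2 as the reference, 2 members were higher in InjuredPT-A, Kap in control AAI was 0.98 in InjuredPT-A and -0.081 in InjuredPT-B, and Napsa reversed to 0.16 in InjuredPT-B of OE AAI. Against the uninjured mouse, Kap was 0.95 and 0.26 in InjuredPT-A and -0.11 and -1.13 in InjuredPT-B, and Keg1 in control AAI -2.58 and -0.96. In the control AAI or OE AAI mouse alone, InjuredPT-B had 2273 and 2392 genes.

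Leaving out each normal proximal tubule cluster in turn gave 1 to 2 members higher and 2 to 3 lower in InjuredPT-A and 0 to 1 higher and 3 to 4 lower for AAI in control, and without PT-S3-2 the higher members were 2 and 0. For AAI in control, Kap was -0.196 without PT-S3-2 and Keg1 -0.1995 without PT-S1-S2-1. Lower members were 3 to 4 for AAI in OE and 4 to 5 for OE with AAI, as Akr1c21 was -0.15 and -0.17 without PT-S3-3, and 2 to 3 for OE without AAI, as Gatm was -0.16 without PT-S1-S2-1. Kap stayed between 1.13 and 1.58 and Keg1 between -2.40 and -2.05 in InjuredPT-A, while Gatm of OE AAI ran from -0.73 to 0.0047, the latter without PT-S1-S2-1. The outside percentage of Keg1 in OE AAI was 18.5% as a mean over clusters, and that of Kap in control 89.2% over all 7 proximal tubule clusters. Leaving out EC-1 and DCT/CNT was added after the data were seen and moved no outside percentage of Kap or Keg1 by over 1.5 times. For single pairs of S3 and S1-S2 clusters, Kap reached 0.014, 0.047 and 0.079 in control, control AAI and OE, and Napsa -0.077, -0.40, -0.20 and -0.33 in the 4 mice, so the segment difference of Kap rests on PT-S1-S2-1 and that of Napsa was reversed for PT-S3-1 against PT-S1-S2-1. Centred on the median, or rescaled without the members or without mitochondrially encoded genes, no member value reversed. The filter does not enter a member's value, so leaving it out could not move one. No paired analysis was possible because each condition has 1 mouse, while injured and segment differences were already taken within a mouse. Cluster means without numbers of nuclei limit the precision of every value to an unknown degree.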
